A study of Sus scrofa with 12 samples.

Results

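Stress fibre and focal adhesion genes were examined in primary porcine arterial endothelial cells (ECs) exposed to low, physiological or supra-high wall shear stress (WSS). The group was a list of 43 symbols for actins, actin crosslinkers, myosin chains, tropomyosins, calponins, plaque proteins and regulators of these structures. The rule names the symbols and uses no measured value, but the list was drawn up with earlier results of these data known. Of the 43 symbols, 39 had a row among the 21153 genes of the count table, of which 14572 could be given a symbol. MYH10, MYL12B, TPM3 and RHOB had no row and were not analysed here. All 39 genes passed the filter on low counts in every comparison, NGEF at 2 dyne/cm2 only through the control cultures.

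RNA of 12 cultures from 3 donor pigs was sequenced after 48 h of laminar flow, and each of the 4 groups held 1 culture per donor. The groups were cultures at 2 dyne/cm2, cultures at 80 dyne/cm2 and a pair of control sets at 30 dyne/cm2, here set 1 and set 2. The study asked how ECs respond to shear stresses of the kind met in aneurysms. All cultures were primary ECs grown on gelatin in medium with fetal calf serum and heparin, for which no genetic change and no strain is given. The methods name coronary arteries of 8-month-old animals, whereas the labels name the aorta. According to the labels, low and supra-high WSS were run in different flow slides at different seeding densities, each with its own cultures at 30 dyne/cm2, whereas the methods give 1 slide type. The labels do not tell which control set belongs to which slide. Cultures at 2 dyne/cm2 were compared with set 1 and those at 80 dyne/cm2 with set 2. Cultures of a donor share their source, so the number of independent animals was 3.

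Stress fibres are bundles of actin filaments crosslinked by alpha-actinin and filamin and pulled by non-muscle myosin II. Myosin becomes active when its regulatory light chain is phosphorylated, a step that myosin light chain kinase catalyses. The bundles end in focal adhesions, where talin, vinculin, paxillin, zyxin, tensin and the complex of ILK with parvins connect them to integrins. Endothelial cells under steady laminar flow carry stress fibres aligned with the flow. Monomeric actin holds the coactivator MRTFA out of the nucleus, and MRTFA with SRF drives many actin cytoskeleton genes.

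Library totals lay between 29606854 and 41058902 reads on genes. The 9 endothelial markers with a row, among them PECAM1, CDH5, TIE1 and ERG, were at or above 1 CPM (reads of a gene divided by the library total and scaled to a common total) in all 12 libraries. Their summed level was 4677 to 5833 CPM at 2 dyne/cm2, 7138 to 7924 CPM in set 1, 6772 to 7600 CPM in set 2 and 8388 to 8837 CPM at 80 dyne/cm2. Smooth muscle markers summed to 162 to 188 CPM at 2 dyne/cm2 and to 51.0 to 89.3 CPM in the other 9 libraries, mostly from SMTN and SYNPO2, while DES was at 0 in all libraries and MYH11, CNN1, ACTA2, TAGLN and ACTG2 stayed under 1 CPM. Fibroblast markers ranged from 136 to 1212 CPM at 2 dyne/cm2, 63.4 to 674 CPM in set 1, 72.8 to 915 CPM in set 2 and 30.8 to 276 CPM at 80 dyne/cm2, mostly from FBLN1 and COL1A2, with DPT at 0 throughout. The 6 leukocyte markers summed to at most 27.4 CPM, and PTPRC and CD3E were at or near 0. The part of these other transcripts in the results was not tested. In bulk RNA, fewer cells of a type and less RNA per cell cannot be told apart.

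Under low WSS the group split. The tropomyosins TPM1 and TPM2, MYL9 (a myosin regulatory light chain), MYLK, the calponin CNN2, PDLIM5 and RND3 were up-regulated at 2 dyne/cm2 vs. 30 dyne/cm2. In the same comparison NGEF, PSTPIP1, PDLIM7, RHOA, RHOC, TNS1 and PXN were down-regulated. Of the 39 genes, 14 passed an adjusted p of 0.05 (35.9%), 7 up and 7 down, against 25.8% of the 11226 genes tested (13.4% up and 12.4% down). With a change of at least 2-fold as a further condition, 8 passed (20.5%), 5 up and 3 down, against 9.6% of all genes (5.06% up and 4.54% down). Without NGEF, which could only be tested for a fall, the counts were, in an alternative chosen after seeing the data, 13 of 38 (34.2%) and 7 of 38 (18.4%). Against set 2 the members were near the background, with 9 of 38 past the adjusted p (23.7%, against 24.6% of all genes) and 3 past both conditions (7.89%, against 7.71%). These values came from the quasi-likelihood test of edgeR with a term for the donor, adjusted over all genes tested by the Benjamini-Hochberg method. Without the donor term 10 genes passed the adjusted p (5 up and 5 down, 25.6%, against 11.1% of all genes), and 7 also passed the 2-fold change, against 5.66% of all genes. MYL9, MYLK, PXN and TNS1 lost their calls without it, with adjusted p of 0.0643, 0.179, 0.0835 and 0.0632. The median log2 fold change of the 39 genes was -0.01 and that of all genes tested was 0.00.

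**Figure D1:**
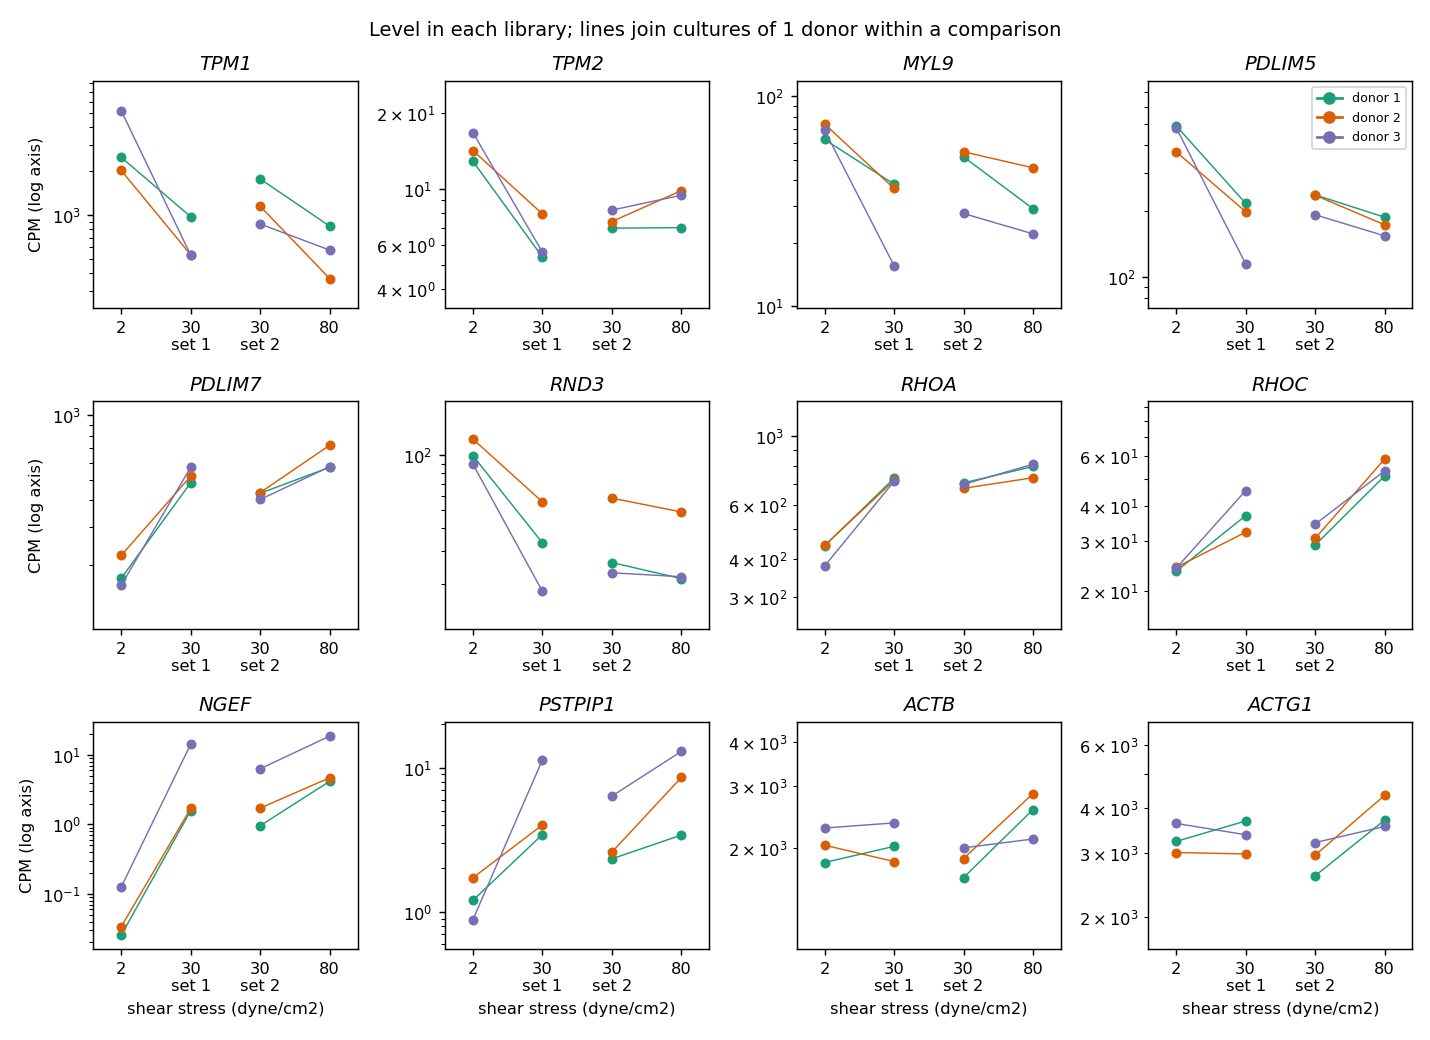
CPM on a log axis for 12 genes in each of the 12 libraries (points), by shear stress in dyne/cm2 and control set, coloured by donor, with lines joining the cultures of a donor within a comparison. TPM1, TPM2, MYL9, PDLIM5 and RND3 lie higher at 2 dyne/cm2 than in set 1 in every donor, and PDLIM7, RHOA, RHOC, NGEF and PSTPIP1 lie lower.

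Tropomyosins wind along actin filaments and govern which proteins can bind them. TPM1 (chr1:108986981-109016090 on Sscrofa11.1) stood at 2486, 2022 and 5189 CPM in donors 1, 2 and 3 at 2 dyne/cm2 and at 972, 532 and 531 CPM in set 1. Each donor was higher under low WSS and the groups did not overlap, with a log2 fold change of 2.19 (SE 0.42, adjusted p = 0.0234). The rise was no longer past the threshold without donor 2 (2.36, adjusted p = 0.0686) or against set 2 (1.30, adjusted p = 0.109). TPM2 (chr1:236402249-236410390) had 12.8, 14.2 and 16.7 CPM at 2 dyne/cm2 and 5.36, 7.94 and 5.60 CPM in set 1, again without overlap. Its log2 fold change was 1.24 (SE 0.19, adjusted p = 0.0145), and it kept its call in all alternative settings that were run. TPM4 showed -0.07 (SE 0.14, adjusted p = 0.721). Tropomyosin genes share near-identical exons and reads mapping to several places had been discarded, so their separate levels are uncertain, and the merged gene models do not tell isoforms apart.

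Of the calponins and caldesmon, which bind actin and restrain myosin, CNN2 was called. CNN2 ranged from 235 to 282 CPM at 2 dyne/cm2 and from 148 to 197 CPM in set 1, with a log2 fold change of 0.59 (SE 0.15, adjusted p = 0.0447). That call was lost when any donor was left out (adjusted p 0.0600 without donor 1, 0.0849 without donor 2 and 0.0595 without donor 3), with no filter on low counts (0.0503) and against set 2 (0.0509). CALD1 had 578, 472 and 998 CPM at 2 dyne/cm2 and 480, 357 and 315 CPM in set 1, a log2 fold change of 0.79 (SE 0.32, adjusted p = 0.126). The groups overlapped, because donor 1 in set 1 exceeded donor 2 under low WSS. CNN3 showed 0.22 (SE 0.10, adjusted p = 0.146).

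Of the 3 genes for myosin and its regulators, MYL9 and MYLK rose, and the heavy chain gene MYH9 did not pass the test. MYL12A, another regulatory light chain gene outside the group, did not rise. It had 802, 755 and 764 CPM at 2 dyne/cm2 and 843, 858 and 837 CPM in set 1, lower in each donor. MYL9 (chr17:39788165-39795240), a regulatory light chain gene, had 62.4, 74.0 and 69.1 CPM at 2 dyne/cm2 and 38.2, 36.5 and 15.7 CPM in set 1. All 3 donors were higher without overlap, with a log2 fold change of 1.29 (SE 0.31, adjusted p = 0.0382). The call was lost without donor 2 (1.45, adjusted p = 0.0835) and against set 2 (0.70, adjusted p = 0.0976). MYLK, the kinase, had 2.02, 5.47 and 3.59 CPM at 2 dyne/cm2 and 1.32, 2.55 and 1.86 CPM in set 1. Its groups overlapped although it was higher in every donor, and the log2 fold change was 0.91 (SE 0.19, adjusted p = 0.0296). Leaving out any donor ended that call, with adjusted p of 0.0637 without donor 1, 0.0912 without donor 2 and 0.0853 without donor 3, and so did set 2 as control (0.39, adjusted p = 0.198) and both sets together (0.62, adjusted p = 0.0696). MYH9, the non-muscle myosin heavy chain, had 1799, 1989 and 2226 CPM against 1505, 1620 and 1619 CPM. The groups did not overlap, yet the log2 fold change of 0.35 (SE 0.13, adjusted p = 0.0983) did not pass. It passed in the DESeq2 test (0.36, adjusted p = 0.0188) and in edgeR against both control sets (0.32, adjusted p = 0.0252). MYL9 and MYLK overlap annotated long non-coding RNA genes, and the counting strand was not stated. Of the other genes called in either comparison, TNS1, PARVB and ZYX also overlap such genes. VCL, CFL1, TLN1, ILK, ACTN4 and CNN3 overlap protein-coding genes.

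Within the focal adhesion plaque, 1 of 11 genes rose, 3 fell and 7 did not pass. PDLIM5 and PDLIM7, scaffolds with a PDZ domain and LIM domains that sit on actinin-rich filaments, went opposite ways. PDLIM5 (chr8:125044027-125259969) was at 491, 374 and 481 CPM at 2 dyne/cm2 and at 217, 199 and 115 CPM in set 1. PDLIM7 (chr2:80453013-80472660) was at 173, 221 and 161 CPM at 2 dyne/cm2 and at 483, 519 and 571 CPM in set 1. Neither gene's groups overlapped, and the log2 fold changes were 1.39 (SE 0.26, adjusted p = 0.0213) for PDLIM5 and -1.50 (SE 0.13, adjusted p = 0.00524) for PDLIM7. Both calls were kept in all alternative settings that were run.

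TNS1, a tensin that ties actin to integrin tails in mature adhesions, fell from 341 to 537 CPM in set 1 to 217 to 256 CPM (log2 fold change -0.75, SE 0.15, adjusted p = 0.0276), and without donor 1 its adjusted p was 0.0586. PXN, the adaptor paxillin, fell from 206 to 298 CPM to 176 to 184 CPM (log2 fold change -0.54, SE 0.14, adjusted p = 0.0450). This last call was lost without donor 1 (adjusted p = 0.167) or donor 3 (adjusted p = 0.135). VCL, which encodes vinculin, had 439, 308 and 569 CPM at 2 dyne/cm2 and 301, 259 and 279 CPM in set 1. Every culture under low WSS lay above those of set 1, but the log2 fold change of 0.62 (SE 0.18, adjusted p = 0.0634) did not pass in edgeR. It passed in the DESeq2 test (adjusted p = 0.00774), with the dispersion taken from all 12 libraries (0.0154) and against both control sets (0.00941). TLN1, or talin, showed 0.38 (SE 0.11, adjusted p = 0.0596), and ZYX, FERMT2, PARVA, PARVB and ILK lay between -0.32 and 0.17, with adjusted p of 0.242 or more.

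Among the regulators, NGEF, RHOA and RHOC fell and RND3 rose. NGEF (chr15:133332715-133460161), a guanine nucleotide exchange factor, had 65, 56 and 486 counts in donors 1, 2 and 3 of set 1 and 1, 1 and 4 counts at 2 dyne/cm2. The summed rate was 94.2 times higher in set 1 than at 2 dyne/cm2 (95% exact counting interval 43.0 to 257.7, which covers counting error only). Donor 3 stood apart in every group and held most of the counts, with 14.3 CPM in set 1 against 1.58 and 1.70 CPM. All 3 donors were lower under low WSS, and the fitted log2 fold change was -6.35 (SE 0.33, adjusted p = 0.00299), a value that depends on the prior count. The minimum of 1 CPM in 3 libraries was met only by set 1, so a rise in NGEF could not have been tested, and the call carries no weight as a direction. The gene failed the filter when any donor was left out or set 2 was the control, so no fit exists there. NGEF overlaps NEU2 and a pseudogene in the annotation.

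RHOA (chr13:31918484-31991207), a GTPase that promotes stress fibre formation, had 441, 442 and 379 CPM at 2 dyne/cm2 and 730, 719 and 714 CPM in set 1. The narrow spread of set 1 lay far above all cultures under low WSS, with a log2 fold change of -0.77 (SE 0.10, adjusted p = 0.00924), called in all alternatives run. RHOC, its close relative, had 23.5, 24.2 and 24.1 CPM against 37.0, 32.3 and 45.3 CPM. The fall of RHOC (log2 fold change -0.65, SE 0.11, adjusted p = 0.0188) did not overlap either, and its adjusted p was 0.0612 without donor 1. RND3 (chr15:1715589-1732605), an atypical GTPase that opposes stress fibre formation, stood at 99.3, 122 and 89.4 CPM at 2 dyne/cm2 and at 33.4, 55.7 and 18.2 CPM in set 1. It rose in every donor without overlap (log2 fold change 1.68, SE 0.25, adjusted p = 0.0137) and was called in all alternatives run. ROCK1 and ROCK2, kinases that favour myosin activity, showed log2 fold changes of -0.21 and 0.21 (SE 0.08 for each), with adjusted p of 0.109 and 0.108. RHOA and RHOC share similar coding stretches, so reads discarded as ambiguous may affect both levels.

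Of 4 adhesion signalling genes, 1 fell and 3 did not pass. PSTPIP1 (chr7:57100212-57145278), an adaptor that binds the phosphatase PTP-PEST and curved membranes, had 1.20, 1.72 and 0.881 CPM at 2 dyne/cm2 and 3.43, 4.0 and 11.3 CPM in set 1. The groups did not overlap and the log2 fold change was -2.08 (SE 0.51, adjusted p = 0.0410), but the call was lost without donor 2 (-2.53, adjusted p = 0.0597) and against set 2 (-1.41, adjusted p = 0.0822). PTK2, the focal adhesion kinase, had 195, 225 and 196 CPM against 196, 229 and 205 CPM. Differences between donors were larger than those between conditions for PTK2 (log2 fold change -0.02, SE 0.08, adjusted p = 0.880). SRC showed 0.34 (SE 0.10, adjusted p = 0.0638) and BCAR1 0.06 (SE 0.10, adjusted p = 0.664).

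The cytoplasmic actins and their transcriptional regulators did not pass the test under low WSS. ACTB was at 1818, 2037 and 2280 CPM at 2 dyne/cm2 and at 2021, 1830 and 2357 CPM in set 1. ACTG1 was at 3239, 3017 and 3634 CPM against 3690, 2990 and 3380 CPM. Both ranges overlapped, and the log2 fold changes were 0.00 (SE 0.13, adjusted p = 0.999) and -0.01 (SE 0.15, adjusted p = 0.972), with signs that changed between settings. The filament crosslinkers ACTN1, ACTN4 and FLNA lay between -0.21 and 0.29 with adjusted p of 0.175 or more. CFL1, or cofilin, which severs filaments, showed -0.38 (SE 0.12, adjusted p = 0.0721) without overlap between the groups, and profilin, PFN1, showed -0.06 (SE 0.13, adjusted p = 0.745). SRF had 32.5, 36.9 and 43.5 CPM against 49.0, 35.3 and 36.2 CPM. MRTFA had 50.6, 54.9 and 47.6 CPM against 59.3, 50.4 and 66.2 CPM. Neither regulator was separated from set 1, with log2 fold changes of -0.07 (SE 0.19, adjusted p = 0.796) and -0.18 (SE 0.12, adjusted p = 0.313). In all, the 25 genes that did not pass ranged from -0.38 to 0.79, 12 positive and 13 negative.

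**Figure D2:**
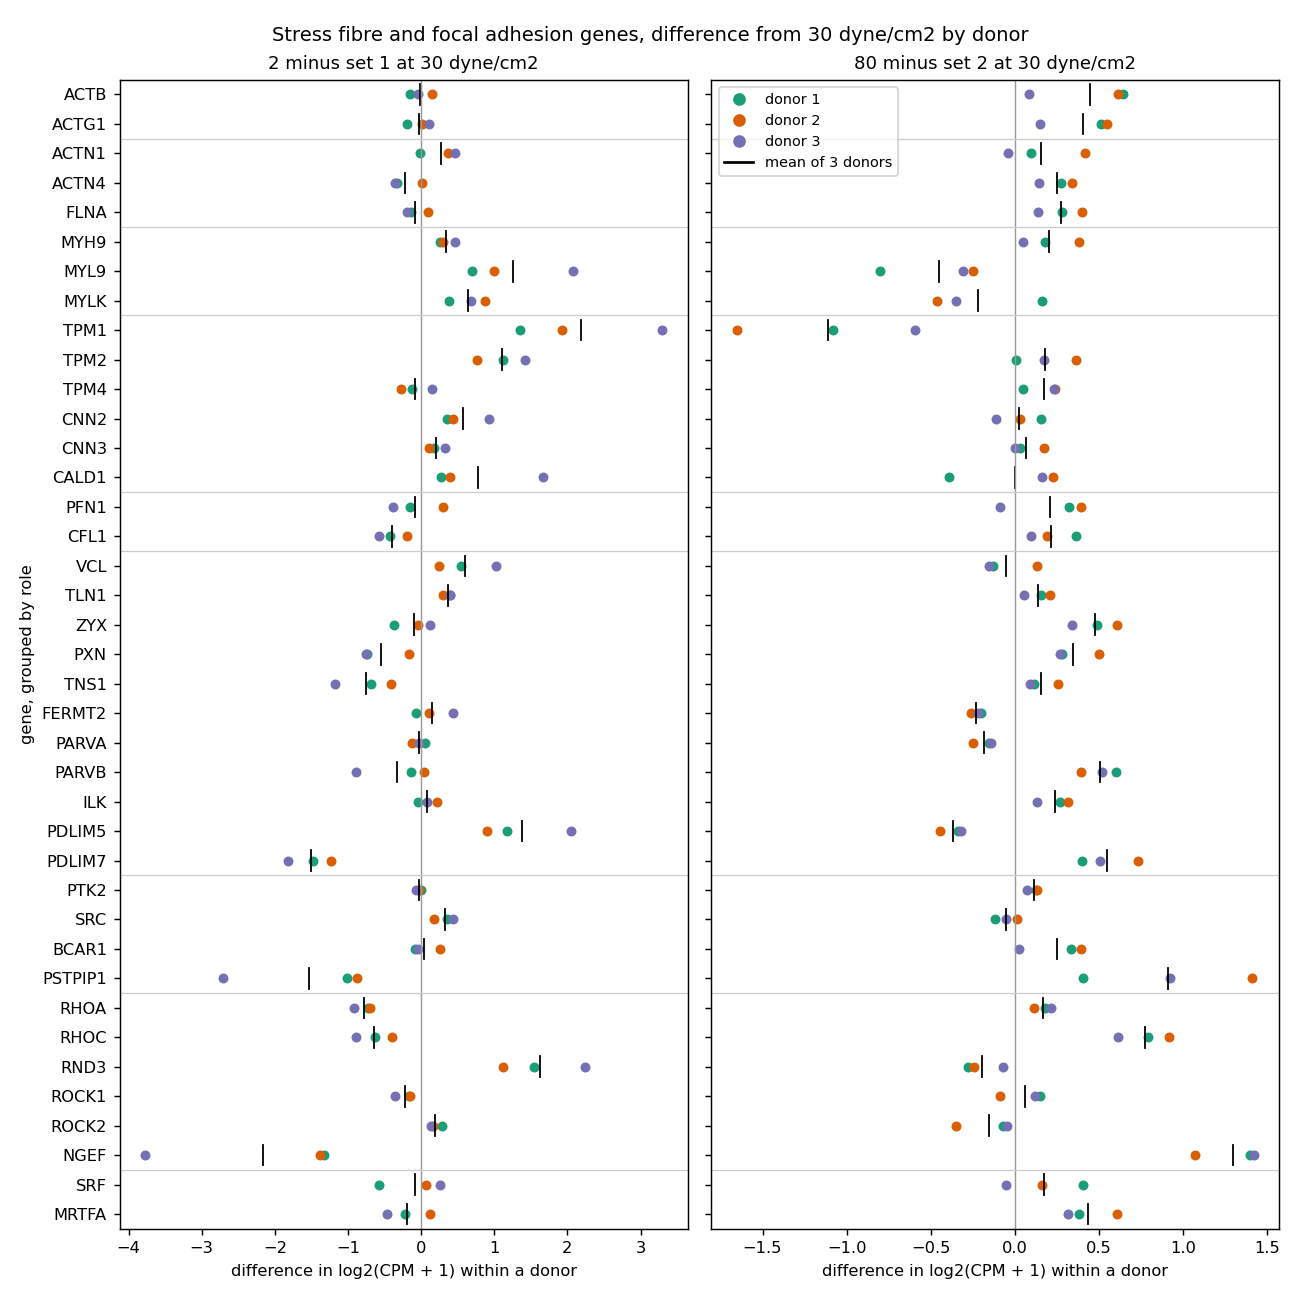
Difference in log2(CPM + 1) from 30 dyne/cm2 within each donor (points) and the mean of 3 donors (bars) for 39 genes, ordered by role, at 2 dyne/cm2 (left) and at 80 dyne/cm2 (right, on a narrower axis). In the left panel 14 genes lie above 0 in all 3 donors (32.2% of all genes did so) and 10 below (33.4%). In the right panel 23 lie above (20% of all genes) and 7 below (27.1%).

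Under supra-high WSS the changes were smaller and mostly upward. At 80 dyne/cm2 vs. 30 dyne/cm2, NGEF, PSTPIP1, RHOC, PDLIM7, PARVB, ZYX and MRTFA were up-regulated and TPM1 was down-regulated. These 8 of 39 genes (20.5%) compare with 8.4% of the 11187 genes tested, of which 4.36% were up and 4.04% down. With the 2-fold condition 3 passed (7.69%), NGEF and PSTPIP1 up and TPM1 down, against 2.2% of all genes (1.14% up and 1.05% down). These calls rest on the donor term and on set 2: without the donor term edgeR called 0 of the 39 genes and 0 of all 11187. An unadjusted p under 0.05 was then found for 12 members (30.8%), against 8.3% of all genes. With set 1 as control 0 members were called, and 26 of all genes (0.234%). With both control sets 3 members passed (7.69%, against 2.88% of all genes), RHOC, NGEF and ZYX. The dispersion of all 12 libraries also left 3 (7.69%, against 3.25%), RHOC, NGEF and PDLIM7, and the DESeq2 test called 12 (30.8%, against 10.3%).

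NGEF had 4.18, 4.70 and 18.7 CPM at 80 dyne/cm2 and 0.960, 1.72 and 6.34 CPM in set 2. It was higher in every donor, although donor 3 of set 2 exceeded donors 1 and 2 under supra-high WSS, and the log2 fold change was 1.72 (SE 0.16, adjusted p = 0.00357). Against set 1 it was 1.04 (adjusted p = 0.166). PSTPIP1 had 3.41, 8.55 and 12.9 CPM against 2.33, 2.59 and 6.34 CPM. This gene also rose in every donor with overlapping groups (log2 fold change 1.15, SE 0.24, adjusted p = 0.0312), and the call was lost without donor 2 (0.81, adjusted p = 0.0946), without donor 3 (1.17, adjusted p = 0.194) and against set 1 (0.43, adjusted p = 0.517).

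TPM1 was the member that fell. It had 838, 366 and 574 CPM at 80 dyne/cm2 and 1767, 1147 and 867 CPM in set 2, without overlap, with a log2 fold change of -1.07 (SE 0.19, adjusted p = 0.0173). Leaving out a donor kept the call, but against set 1, where TPM1 was lower than in set 2 in every donor, the log2 fold change was -0.21 (adjusted p = 0.575). MYL9 and PDLIM5, which rose under low WSS, showed -0.43 (SE 0.15, adjusted p = 0.118) and -0.34 (SE 0.08, adjusted p = 0.0519), of which PDLIM5 passed in the DESeq2 test (0.0156) and with no filter on low counts (0.0401). PDLIM5 was lower at 80 dyne/cm2 in every donor without overlap, at 188, 173 and 154 CPM against 238, 237 and 193 CPM, but against set 1 its log2 fold change was 0.01.

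RHOC had 51.1, 58.7 and 53.3 CPM at 80 dyne/cm2 and 29.1, 30.7 and 34.5 CPM in set 2. It rose without overlap (log2 fold change 0.83, SE 0.10, adjusted p = 0.00618), in the fits that left out each donor as well, and against set 1 the value was 0.53 (adjusted p = 0.227). RHOA had 798, 734 and 812 CPM against 706, 678 and 699 CPM, higher in each donor, with a log2 fold change of 0.20 (SE 0.10, adjusted p = 0.251) that did not pass. RND3 showed -0.17 (SE 0.10, adjusted p = 0.318).

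In the plaque, 3 of 11 genes rose and 8 did not pass. PDLIM7 had 570, 723 and 574 CPM at 80 dyne/cm2 and 432, 435 and 404 CPM in set 2 (log2 fold change 0.58, SE 0.12, adjusted p = 0.0305). PARVB, or beta-parvin, a partner of ILK, ranged from 43.0 to 63.0 CPM against 32.5 to 41.1 CPM (log2 fold change 0.55, SE 0.08, adjusted p = 0.0105). ZYX, which marks mature adhesions and strained fibres, ranged from 187 to 210 CPM against 123 to 150 CPM (log2 fold change 0.51, SE 0.10, adjusted p = 0.0216). All 3 were higher without overlap, but PDLIM7 was not past the threshold without donor 2 (adjusted p = 0.0958) or donor 3 (0.211), PARVB without donor 3 (0.105), and ZYX without donor 2 (0.0804) or donor 3 (0.126). VCL had 296, 273 and 282 CPM against 324, 249 and 313 CPM, with a log2 fold change of -0.02 (SE 0.11, adjusted p = 0.930). PXN showed 0.38 (SE 0.10, adjusted p = 0.0665), and it passed in the DESeq2 test (0.0184), with no filter on low counts (0.0452) and without donor 1 (0.00249).

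ACTB had 2573, 2857 and 2121 CPM at 80 dyne/cm2 and 1647, 1866 and 2002 CPM in set 2. ACTG1 had 3713, 4347 and 3565 CPM against 2600, 2967 and 3215 CPM. Both actins were higher in each donor without overlap, donor 3 by the least, but their log2 fold changes of 0.48 (SE 0.15, adjusted p = 0.0919) and 0.44 (SE 0.14, adjusted p = 0.108) did not pass in edgeR. They passed without donor 1 (adjusted p = 0.0251 and 0.0305) and in the DESeq2 test (0.00659 and 0.00551). The 2 cytoplasmic actins are near-identical as proteins and similar in coding sequence, so reads discarded as ambiguous may affect both levels. MRTFA rose from 51.8, 47.3 and 53.7 CPM to 67.9, 72.7 and 67.1 CPM (log2 fold change 0.47, SE 0.10, adjusted p = 0.0334), a call that was lost without donor 2 (adjusted p = 0.124) or donor 3 (adjusted p = 0.159). SRF had 44.3, 40.04 and 39.4 CPM against 33.2, 35.7 and 40.9 CPM, with a log2 fold change of 0.21 (SE 0.10, adjusted p = 0.225). MYH9 had 1905, 2144 and 1737 CPM against 1685, 1646 and 1682 CPM, a small separation with a log2 fold change of 0.23 (SE 0.13, adjusted p = 0.302). PTK2 showed 0.14 (SE 0.09, adjusted p = 0.324).

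Counted without a model, many more members lay above set 2 under supra-high WSS than passed the test. Of the 39 genes, 15 had all 3 cultures at 80 dyne/cm2 above all 3 of set 2, against 6.23% of all genes, and 2 had all below (TPM1 and PDLIM5), against 7.92%. The 15 were ACTB, ACTG1, ACTN4, FLNA, MYH9, CFL1, TLN1, ZYX, PXN, PARVB, ILK, PDLIM7, RHOA, RHOC and MRTFA. Of these, ACTB, ACTG1, ACTN4, CFL1, PARVB and PDLIM7 at 80 dyne/cm2 overlapped set 1, as did TPM1 and PDLIM5. The share of all genes was not counted against set 1. At 2 dyne/cm2 the counts against set 1 were 10 above, against 17.6% of all genes, and 9 below, against 18.9%. NGEF, which could only be tested for a fall, is among those below. On library sizes scaled by TMM, an alternative chosen after seeing the data, the counts were 15 above (7.61% of all genes) and 3 below (7.34%, with FERMT2 added) under supra-high WSS. Under low WSS they were 9 (18.3%) and 9 (19.5%). Within donors, 23 of 39 genes (59.0%) were higher in all 3 at 80 dyne/cm2 than in set 2, against 20% of all genes. In the same comparison 7 (17.9%) were lower, against 27.1%. At 2 dyne/cm2, 14 (35.9%) were higher and 10 (25.6%) lower in all donors, with NGEF among the lower, against 32.2% and 33.4%.

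The median over the 39 genes of the within-donor difference in log2(CPM + 1) described the same shift. At 80 dyne/cm2 against set 2 it was 0.16, 0.24 and 0.08 in donors 1, 2 and 3 (0.16 ± 0.08, SD, n = 3). Over all genes tested the median was 0.06, -0.11 and -0.06 (-0.03 ± 0.09). At 2 dyne/cm2 against set 1 the median of the 39 genes was -0.09, 0.11 and 0.10 (0.04 ± 0.11), against -0.01 ± 0.04 for all genes. The medians of the list are descriptions without a test, and each covers genes moving in both directions. By role, the median at 2 dyne/cm2 was 0.64 ± 0.25 over the 3 genes of myosin and its regulators, in each donor the value of MYLK. It was about as high over the 6 tropomyosins, calponins and caldesmon (0.64 ± 0.47). Under supra-high WSS the actins had the highest median (0.43 ± 0.27 over 2 genes). The genes of myosin and its regulators had the lowest (-0.13 ± 0.26).

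**Figure D3:**
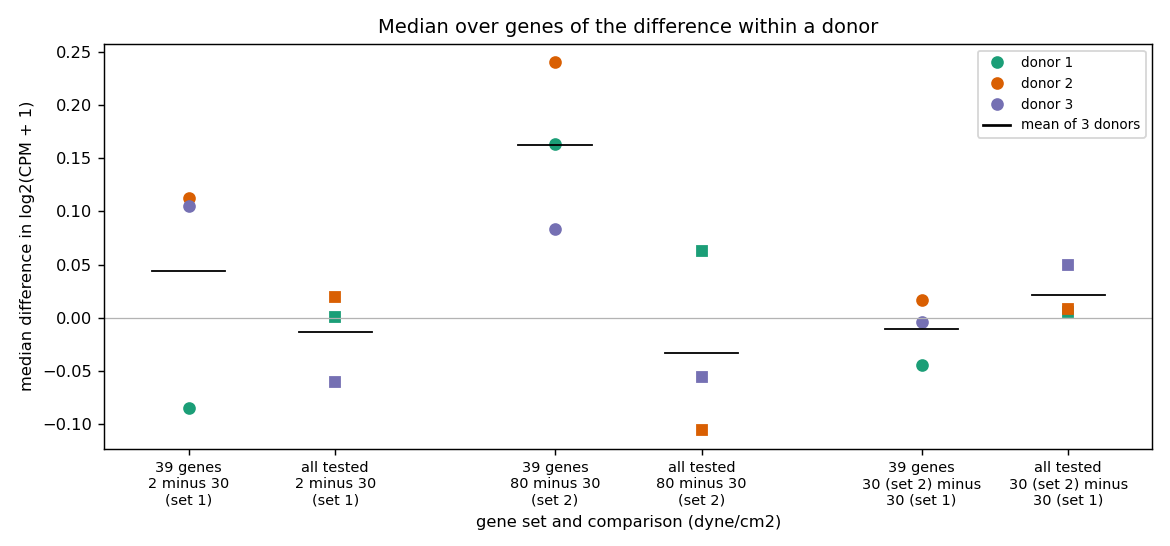
Median difference in log2(CPM + 1) within each donor over the 39 genes (circles) and over all genes tested (squares), for 2 minus 30 dyne/cm2, 80 minus 30 dyne/cm2 and set 2 minus set 1, with bars for the mean of 3 donors. The 39 genes lie above 0 in all 3 donors at 80 dyne/cm2 and on both sides of 0 in the other comparisons.

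The responses to low and supra-high WSS were also set against each other, as the difference between 2 vs. 30 dyne/cm2 and 80 vs. 30 dyne/cm2 in a fit over 12 libraries. Among the 39 genes this difference was past an adjusted p of 0.05 in 19 (48.7%), 7 higher and 12 lower in the low WSS response, against 37.1% of 11568 genes (19.3% higher and 17.9% lower). Without the donor term it was 12 genes, 3 higher and 9 lower, against 15.1% of all genes. NGEF is counted among the lower genes in both fits. Leaving NGEF out, an alternative chosen after seeing the data, gave 18 of 38 (47.4%) with the donor term and 11 of 38 (28.9%) without it. TPM1 had the largest positive difference on the log2 scale (3.44, SE 0.53, adjusted p = 0.00121), followed by RND3 (1.87), MYL9 (1.75), PDLIM5 (1.74), MYLK (1.18), TPM2 (1.01) and CNN2 (0.55). NGEF had the most negative (-7.95, SE 0.48, adjusted p = 2.1e-05), but this value rests on 1, 1 and 4 counts at 2 dyne/cm2. NGEF passed the filter only through the other groups, so its value carries no weight as a direction. PSTPIP1 came next (-3.20), followed by PDLIM7 (-2.08), RHOC (-1.48), RHOA (-0.96), TNS1 (-0.93), PXN (-0.92), PARVB (-0.88), MRTFA (-0.65), CFL1 (-0.63), ZYX (-0.59) and ACTN4 (-0.49). The actins, VCL, PTK2 and SRF were not among them, and for ACTB the difference was -0.49 (SE 0.22, adjusted p = 0.110). Slide type, seeding density and shear stress cannot be told apart here if the labels are right about the slides.

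Of the 5 genes called in both comparisons, PSTPIP1, PDLIM7, RHOC and TPM1 changed in opposite directions. NGEF, the other gene, also did, but at 2 dyne/cm2 only a fall of NGEF could be tested. Across the 39 genes the signs of the log2 fold changes were opposite in 28 (71.8%), 19 lower at 2 and higher at 80 dyne/cm2 and 9 the other way. NGEF is counted in the 28 and in the 19. Over 11042 genes tested in both comparisons the share was 65.3%, so the total share among the 39 genes was near the background. The split over all genes was more even, 3564 lower at 2 and higher at 80 dyne/cm2 and 3649 the other way. The comparisons have separate control libraries but the same donors.

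**Figure D4:**
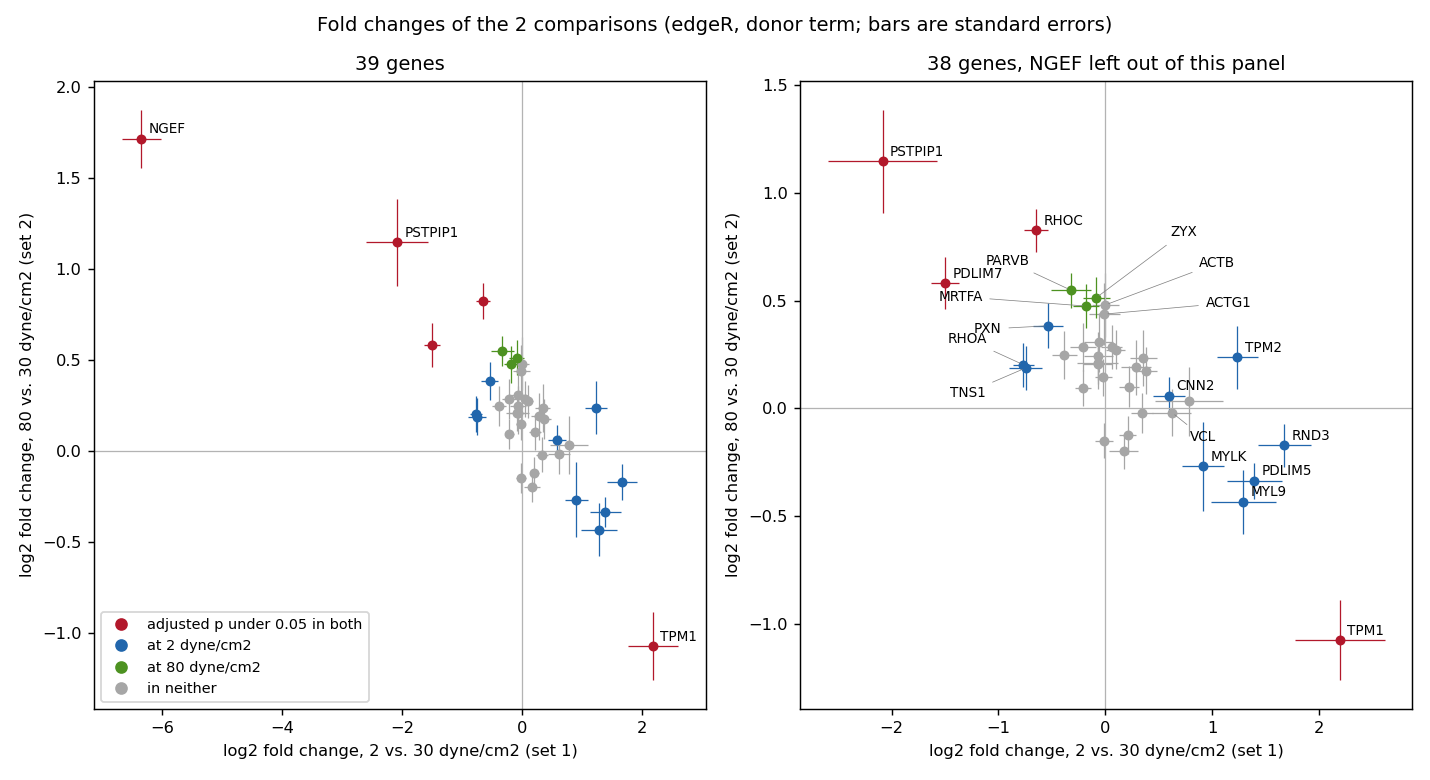
Log2 fold change at 80 vs. 30 dyne/cm2 (vertical) against that at 2 vs. 30 dyne/cm2 (horizontal) for 39 genes (left) and for 38 without NGEF (right), with standard errors as bars and colours for the comparisons in which a gene passed the adjusted p. Points called in both comparisons lie in the upper left, apart from TPM1 at the lower right.

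The pair of control sets, both at 30 dyne/cm2, gave the background of the same measurement. Between set 2 and set 1, edgeR with the donor term called 0 of the 39 genes, against 0.0179% of 11163 genes, and 9 of the 39 had an unadjusted p under 0.05 (23.1%, near the 19.2% of all genes). Without the donor term 1 member had such a p (2.56%, against 4.24%). The largest values were 0.88 for TPM1 (SE 0.10, adjusted p = 0.0681), 0.59 for MYL9 (SE 0.09, adjusted p = 0.0796), -0.70 for PSTPIP1 (SE 0.15, adjusted p = 0.125) and -0.74 for NGEF (SE 0.26, adjusted p = 0.223). Groups did not overlap for MYH9, higher in set 2 (6.15% of all genes did so), and for PDLIM7 and RHOA, lower in set 2 (3.95% of all genes). For TPM1, MYL9, NGEF and PSTPIP1 the values between controls had the sign of the low WSS response, so each gene's response to low WSS was smaller in size against set 2 where it could be fitted, and the response to supra-high WSS was smaller against set 1.

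Condition accounted for more of the spread of these genes over the 12 libraries than donor did. The share of the variance of log2(CPM + 1) between the 4 groups was 59.2% in the median member and that between donors 22.1%, against 39.6% and 30.0% over 11568 genes. Condition exceeded donor in 32 of 39 genes (82.1%), against 57.2% of all genes. The share for condition was highest in RHOA (97.0%), PDLIM7 (96.0%) and RHOC (92.7%), and the share for donor was highest in CNN3 (84.6%), PTK2 (79.8%), PARVA (70.9%) and MYLK (66.4%). These shares are descriptions without a test.

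Other actin and adhesion genes, a list of 128 symbols of which 121 had a row, gave the neighbourhood of these values. At 2 dyne/cm2 38 of 108 tested (35.2%) passed the adjusted p, 12 up and 26 down, against 25.8% of all genes (13.4% up and 12.4% down). With the 2-fold condition 16 passed (14.8%), against 9.6% of all genes. Among the called genes the largest rises were those of SYNPO2, an actin-bundling protein of contractile cells (log2 fold change 4.30, SE 0.39, adjusted p = 0.00588), PDLIM1 (1.54, SE 0.11, adjusted p = 0.00403) and NEXN (1.35, SE 0.18, adjusted p = 0.0110). The largest called falls were those of TNS3, a tensin (-1.89, SE 0.26, adjusted p = 0.0112), PDLIM2 (-1.83, SE 0.29, adjusted p = 0.0159) and NEDD9, a relative of BCAR1 (-1.49, SE 0.17, adjusted p = 0.00777). MYOCD, a cofactor of SRF in muscle, showed 3.13 (SE 0.88, adjusted p = 0.0571) and did not pass. PDLIM family members again went both ways. At 80 dyne/cm2 13 of 106 (12.3%) passed, 9 up and 4 down, against 8.4% of all genes (4.36% up and 4.04% down). With the 2-fold condition 1 passed (0.943%, against 2.2% of all genes), SYNPO2 (-1.21, SE 0.23, adjusted p = 0.0227). SYNPO2 also stands in the smooth muscle marker list, where it gave most of the increase at 2 dyne/cm2, with 100, 87.7 and 104 CPM against 7.36, 6.06 and 2.45 CPM in set 1.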

How the data were processed

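RNA of 12 cultures was sequenced single-end on an Illumina HiSeq2000 from TruSeq libraries, with CASAVA 1.8.2 named in the processing notes. The authors used STAR 2.4 to map reads to Sscrofa11.1, left out multi-mapping reads, merged all exons of a gene and counted with featureCounts 1.4.6, and the deposited table holds raw counts. Strand was not stated. Totals per library were 29606854 to 41058902.

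Genes were matched to symbols through the Ensembl identifiers, and positions are RefSeq's on Sscrofa11.1 by symbol. No sequence or exon length was used, so levels are compared within genes only. Counts were analysed with edgeR 4.0.16 in R 4.3.3 (TMM, quasi-likelihood test, a minimum of 1 CPM in 3 or more libraries of a comparison, Benjamini-Hochberg adjustment over all genes tested). Call rules were an adjusted p under 0.05, with or without a 2-fold change. The standard error is the log2 fold change divided by the square root of F. The donor was a term of the model, since the labels give the donor behind each replicate number. After removal of group means, correlations over 11568 genes ran from 0.672 to 0.876 in 18 same-donor pairs and from -0.55 to -0.192 in the 36 others. The deviations within a group then sum to 0, so the negative values follow from the positive ones and add no separate evidence. Median differences used log2(CPM + 1).

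The genes, lists and tests were chosen with earlier results of these data known, including which control set went with which condition. Values per library are given for genes past both thresholds, the 5 largest called changes in each comparison, and a fixed set (ACTB, ACTG1, MYH9, MYL9, VCL, PTK2, RHOB, SRF, MRTFA, PSTPIP1, NGEF); those of CALD1, MYLK, RHOA and PDLIM5 at 80 dyne/cm2 were added after their values were seen. Alternatives were no donor term, relative log expression normalization, DESeq2 1.42.0, other filters, dispersion from 12 libraries, other control sets and each donor left out. The procedure was tested on simulated data with known changes at a fixed dispersion. For 2 vs. 30 dyne/cm2 it found 22 of 57 genes changed 1.5-fold, 70 of 72 changed 2-fold and 71 of 71 changed 4-fold. For the difference of responses it found 13 of 65, 39 of 67 and 68 of 68 in the same order. Of the unchanged genes 5 and 3 were called. The comparison at 80 dyne/cm2 was not simulated.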

Additional observations from a re-analysis of the deposited data

How the results depend on the processing

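Of the 39 genes, the number past the adjusted p at 2 dyne/cm2 was 14 (35.9%, against 25.8% of all genes), 9 with set 2 as control (23.7%, against 24.6%), 10 with no replicate block for the donor (25.6%, against 11.1%) and 8 to 10 with a donor left out (21.1% to 26.3%, against 12.7% to 16.6%). With the 2-fold condition it was 8 (20.5%, against 9.6%), 3 with set 2 (7.89%, against 7.71%) and 4 to 7 with a donor left out (10.5% to 18.4%, against 6.58% to 9.23%), the lowest without donor 2 (10.5%, against 9.23%). The excess over all genes was thus absent against set 2. At 80 dyne/cm2 it was 8 (20.5%, against 8.4%), 0 with no replicate block (0 of all genes), 3 with the dispersion of 12 libraries (7.69%, against 3.25%), 0 with set 1 (against 0.234%), 3 with both sets (7.69%, against 2.88%) and 3 to 11 with a donor left out (7.69% to 28.2%, against 1.68% to 18.6%). With the 2-fold condition it was 3 (against 2.2% of all genes), and in the same order 0, 1, 0, 1 and 1 to 3 (against 0, 1.12%, 0.216%, 0.737% and 1.21% to 2.61%). The difference of responses counted 19 genes (48.7%, against 37.1%), 12 with no replicate block (30.8%, against 15.1%) and 12 to 17 with a donor left out (30.8% to 43.6%, against 17.1% to 29.2%). The cause of these shifts was not tested. Relative log expression normalization, DESeq2 and the other filters kept the counts at 2 and at 80 dyne/cm2 within 1.5 times. For the difference of responses, DESeq2 and the filter of 10 counts were not run. Relative log expression normalization gave 18 genes there (46.2%, against 36.9%), and so did no filter on low counts (46.2%, against 24.1%).

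Signs turned in uncalled values only. At 2 dyne/cm2 ACTB was -0.015 with no filter, -0.0028 with 10 counts in every library, -0.020 with the dispersion of 12 libraries and -0.063 to 0.073 with a donor left out. ACTG1 was 0.20 with set 2, 0.090 with both sets and -0.094 to 0.079 with a donor left out. PTK2 was 0.12, 0.048 and -0.028 to 0.00030 in the same order. SRF was 0.067 with set 2 and -0.27 to 0.19 with a donor left out, MRTFA 0.032 with set 2, and ZYX -0.22 to 0.056 with a donor left out. At 80 dyne/cm2 with set 1, MYL9 was 0.15, MYLK 0.26, PDLIM5 0.011, PTK2 -0.0026 and VCL 0.029. VCL was 0.011 with both sets and -0.16 to 0.069 with a donor left out.

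With 3 donors, values that did not pass are not shown to be equal between conditions. NGEF at 2 dyne/cm2 could not be fitted with 10 counts in every library, with set 2 or with a donor left out.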
